A study of Mus musculus with 16 samples.

Results

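The receptors described are the odorant receptor genes of mouse chromosome 2 whose symbols carry a number above that of Olfr1150. They were taken as every probe set whose name places it on chromosome 2 and whose platform gene symbol is Olfr followed by such a number. This gave 134 of the 22206 probe sets tested, of 1091 odorant receptor probe sets on the array and of 284 receptor probe sets on chromosome 2. RNA from sorted cells of the olfactory mucosa was measured on 16 Clariom S arrays, which report a log2 summary for each probe set. There were 4 groups of 4 arrays: undecanal, titled GFP+; undecanal, titled GFP-; vehicle, titled GFP+; and vehicle, titled GFP-. All mice were C57BL/6 of both sexes, 7 to 12 weeks old, and carried S100a5-tauGFP, in which a green fluorescent protein fused to tau is made from S100a5, so that the label follows the activity of that promoter. The 24 mice stayed singly in chambers of clean air for 40 h at 3.1 L/min, and received pulses of 10 s every 20 min from 26 h on. Undecanal, a fatty aldehyde, was given to the undecanal groups and filtered air to the vehicle groups. Each array held RNA pooled from 3 mice, and each pool gave a fraction of both titles, so there were 4 pools per agent.

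Odorant receptors are G protein-coupled receptors on the cilia of olfactory sensory neurons. A mature neuron transcribes mainly a single receptor gene from a single allele, so the mRNA of a receptor in a bulk sample stands for the neurons that chose it. In such samples fewer neurons of a kind and less receptor mRNA per neuron cannot be told apart. The genes lie in clusters, in which close relatives often sit side by side, and the receptors of chromosome 2 are of class II, the class found in all land vertebrates. S100a5 encodes a calcium-binding protein whose transcription in these neurons falls when odor input is withheld. The comparison of fractions asks whether neurons of a given receptor were unevenly divided by the sort, and the comparison of agents asks whether the odorant changed this.

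The titles and the characteristics of the samples gave opposite GFP signs for 16 of 16 arrays, and the fractions are called by their titles. S100a5 went with the characteristics: in 8 of 8 pools the titled GFP+ array had less of it, with 15.77 ± 0.141 in titled GFP+ and 16.73 ± 0.308 in titled GFP- of undecanal pools (SD, n = 4 each). In vehicle pools it read 15.66 ± 0.126 in titled GFP+ and 16.58 ± 0.26 in titled GFP- (SD, n = 4 each). Of 5 genes listed as raised by activity, S100a5 among them, 4 were lower in titled GFP+ of undecanal pools and 5 of vehicle pools. None was higher, and the list medians were -0.97 and -1.46. If the characteristics are right, every difference between fractions given here turns its sign. Omp, the marker of mature olfactory neurons, was near the top of the scale in all 4 groups, with 18.80 and 18.85 in the fractions titled GFP+ and GFP- of undecanal pools and 18.83 in both of vehicle pools. Markers of other cells also moved with the fraction. Of 12 neutrophil and monocyte markers 12 were higher in titled GFP+ under either agent, among them Lcn2 by 11.48 in undecanal pools and 11.31 in vehicle pools on the log2 scale. Their summed level was between 18.14 and 18.81 in titled GFP+ and between 8.30 and 8.84 in titled GFP- of undecanal pools. In vehicle pools it was between 18.20 and 18.88 in titled GFP+ and between 8.06 and 9.01 in titled GFP-. Of the 11 markers of immature neurons 5 were higher in undecanal pools and 7 in vehicle pools, such as Gng8 by 3.91 and 4.39, and of 5 measured progenitor markers 5 and 4 were higher. Among the progenitor markers Neurog1 had group means from 3.56 to 4.69, below the background level of 4.80 used further on. Of 7 sustentacular markers 5 were higher under either agent. Of the 16 markers of mature neurons 4 were lower and 0 higher under either agent. The part of these cells in the receptor results was not tested.

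Close relatives among the receptors are nearly identical in places, which bears on what a probe set can tell apart. Among 87 of the receptors whose RefSeq model (assembly GRCm38.p6) starts at its ATG, the first 50 coding bases could be set side by side for 3741 pairs. The median pair shared 18 of 50 bases, while 27 pairs shared 45 or more and 5 pairs shared 50. The coding starts below are shown because they belong to the closest pairs and to 1 pair with opposite calls, whose values are set side by side further on. Capitals mark the bases at which Olfr1297 and Olfr1294 differ, which are A37G and G44T when read from Olfr1294 to Olfr1297 and counted from 1 at the A of ATG.
Olfr1297 (chr2:111622023-111622072, minus strand): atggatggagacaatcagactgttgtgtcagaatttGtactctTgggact
Olfr1294 (chr2:111538238-111538287, minus strand): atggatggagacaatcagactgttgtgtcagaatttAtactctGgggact
Olfr1154 (chr2:87903625-87903674, minus strand): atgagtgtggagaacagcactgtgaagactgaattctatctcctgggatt
Olfr1158 (chr2:87990113-87990162, plus strand): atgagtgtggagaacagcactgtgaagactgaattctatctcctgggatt
Olfr1196 (chr2:88701278-88701327, minus strand): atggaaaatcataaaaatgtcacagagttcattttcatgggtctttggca
Olfr1197 (chr2:88729548-88729597, minus strand): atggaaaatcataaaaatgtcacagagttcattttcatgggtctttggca
Olfr1251 (chr2:89667835-89667884, minus strand): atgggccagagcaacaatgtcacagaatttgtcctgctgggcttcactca
Olfr1253 (chr2:89752777-89752826, minus strand): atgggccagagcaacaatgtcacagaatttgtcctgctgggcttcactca

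Most of the receptors gave signal above background. As a background level, log2 4.80 was used, which 95% of the group means of 356 vomeronasal and bitter receptor probe sets do not exceed, and 129 of 134 receptors passed it in at least 1 group. The 5 that did not were Olfr1158, Olfr1164, Olfr1188, Olfr1230 and Olfr1314. In each agent 128 passed in titled GFP+ and 125 in titled GFP-. The spread between arrays was moderate, with a median SD over the receptors from 0.43 in undecanal arrays titled GFP+ to 0.54 in vehicle arrays titled GFP-. The number of arrays limits the precision. All 134 are protein coding in RefSeq, and they fall into 2 runs of genes more than 1 Mb apart: 99 from Olfr1151 to Olfr1274 and 35 from Olfr1275 to Olfr1318. By their MOR synonym, a name that groups mouse receptors by protein similarity, they belong to 17 families. Olfr1506 and Olfr1565 had identical values on 16 of 16 arrays and identical RefSeq sequence around their starts, so that 133 separate measurements stand behind the counts.

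Receptors numbered above Olfr1150 were divided by the sort in both directions. In undecanal pools 42 were higher and 37 lower in titled GFP+ than in titled GFP- at a limma adjusted p under 0.05, against 8.83% and 4.36% of all probe sets. In vehicle pools 38 were higher and 40 lower, against 8.82% and 5.12% of all probe sets. As a share of the 134 this was 31.3% higher and 27.6% lower in undecanal pools, beside 23.2% and 34.5% of the 957 other receptors. In vehicle pools 28.4% were higher and 29.9% lower, beside 21.8% and 37% of the other receptors. The 4 arrays of each fraction did not overlap for 76 receptors in undecanal pools and for 69 in vehicle pools. These were 56.7% and 51.5% of the 134, beside 57.1% and 55.6% of the other receptors and 17.3% and 18.1% of all probe sets. The differences ran from -3.72 to 7.59 on the log2 scale in undecanal pools and from -3.72 to 8.29 in vehicle pools, with medians of 0.14 and -0.02. The other receptors had medians of -0.27 in undecanal pools and -0.38 in vehicle pools, and all probe sets had -0.11 in each. The split moved with the scaling. With arrays centred on the mature neuron markers it was 50 higher and 32 lower in undecanal pools and 49 and 34 in vehicle pools, so that 61% and 59% of the calls were higher, in place of 53.2% and 48.7%. With arrays centred on their medians it was 40 higher and 50 lower in undecanal pools and 36 and 52 in vehicle pools, or 44.4% and 40.9% higher.

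**Figure D1:**
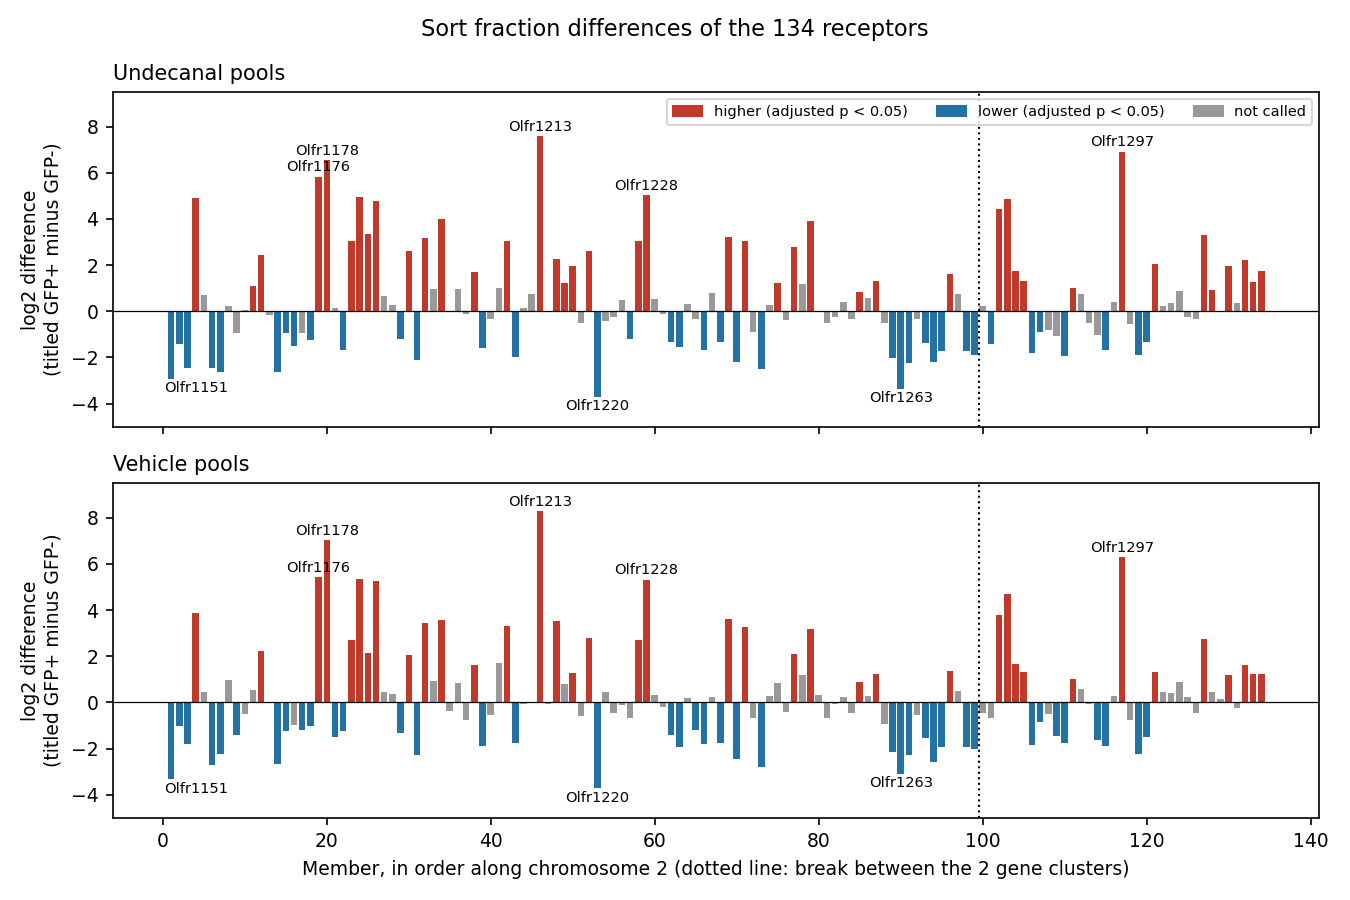
Difference between sort fractions (titled GFP+ minus titled GFP-, log2) for each of the 134 receptors in their order along chromosome 2, in undecanal pools above and vehicle pools below, coloured by the limma call. Receptors called higher (42 and 38) and lower (37 and 40) both occur along each gene run, and Olfr1213, Olfr1178 and Olfr1297 reach above 6 in both panels.

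Olfr1213 differed most of the 134. It read 13.32, 13.22, 13.01 and 13.14 in undecanal arrays titled GFP+, against 6.60, 6.17, 4.75 and 4.81 in those titled GFP-. In vehicle arrays it read 12.47, 13.85, 13.71 and 13.87 in titled GFP+ and 5.74, 5.93, 4.89 and 4.20 in titled GFP-. Each array titled GFP+ was thus far above each array titled GFP-, and 2 of the 8 arrays titled GFP- lay under the background level of 4.80. The difference was 7.59 in undecanal pools (SE 0.431, limma adjusted p = 5.16e-10) and 8.29 in vehicle pools (SE 0.431, limma adjusted p = 1.96e-10), or 193-fold and 313-fold. Olfr1178 read 10.69, 11.06, 11.24 and 10.89 in undecanal arrays titled GFP+, against 4.32, 5.09, 4.45 and 3.85 in those titled GFP-. Vehicle arrays gave 11.30, 11.82, 11.26 and 12.07 in titled GFP+ and 4.90, 3.55, 4.99 and 4.86 in titled GFP-. Since its mean in titled GFP- was below the background level under both agents, it was at least 71.9-fold higher in undecanal pools and at least 112-fold higher in vehicle pools (limma adjusted p = 5.01e-11 and 1.81e-11). These bounds set the mean in titled GFP+ against the background level of 4.80 and depend on it. The 99th percentile of the vomeronasal and bitter receptor probe sets was log2 5.79, and the level from negative controls was 8.70. Against either the bounds would be smaller. All arrays of Olfr1213 titled GFP- also lay under 8.70, which limits its fold values as well.

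Olfr1297 read 14.98, 14.79, 14.76 and 14.44 in undecanal arrays titled GFP+ and 8.34, 8.74, 7.32 and 6.89 in those titled GFP-. In vehicle arrays it read 14.97, 15.01, 14.30 and 14.74 in titled GFP+ and 9.41, 8.71, 8.13 and 7.57 in titled GFP-. Here both fractions lay above the background level of 4.80, although most arrays titled GFP- lay under the negative control level of 8.70. The groups did not overlap, with a difference of 6.92 in undecanal pools (SE 0.378, limma adjusted p = 3.26e-10) and 6.30 in vehicle pools (SE 0.378, limma adjusted p = 9.72e-10). Olfr1154 read 12.20, 11.74, 12.08 and 12.16 in undecanal arrays titled GFP+ and 6.64, 7.80, 7.27 and 6.85 in those titled GFP-. In vehicle arrays it read 12.00, 12.45, 12.25 and 11.86 in titled GFP+ and 7.81, 8.08, 8.63 and 8.62 in titled GFP-, so that arrays titled GFP+ overlapped between agents and those titled GFP- did not. The differences between fractions were 4.90 and 3.86 in undecanal and vehicle pools (SE 0.241 each, limma adjusted p = 9.18e-11 and 1.65e-09).

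The other receptors among the 12 highest of vehicle pools were higher by 3.23 to 5.83 in undecanal pools and by 3.57 to 5.42 in vehicle pools. Olfr1176 was higher by 5.83 in undecanal and 5.42 in vehicle pools, with a wide spread in vehicle arrays titled GFP- (7.47 ± 1.78, SD, n = 4). Olfr1228 averaged 14.27 ± 0.575 in titled GFP+ and 9.26 ± 0.709 in titled GFP- of undecanal pools, and 14.51 ± 0.176 in titled GFP+ and 9.19 ± 0.612 in titled GFP- of vehicle pools (SD, n = 4 each). Both fractions of Olfr1228 were thus above the background level of 4.80, with differences of 5.02 and 5.32. Its means in titled GFP- were close to the negative control level of 8.70. Olfr1182 and Olfr1184 sit 2 places apart along the chromosome and are of the same family, MOR225. Their differences were 4.95 and 4.79 in undecanal pools and 5.37 and 5.28 in vehicle pools, and both read close to the background level in titled GFP-. Olfr1278 differed by 4.87 and 4.69, Olfr1198 by 3.98 and 3.57 and Olfr1241 by 3.23 and 3.61 in undecanal and vehicle pools. Olfr1277 was below background in titled GFP- of undecanal pools, where it was at least 20.2-fold higher in titled GFP+, and differed by 3.81 in vehicle pools. The 12 receptors were each higher in 8 of 8 pools, but the direction in the 4 vehicle pools was part of the rule that chose them.

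Olfr1220 was the lowest of the 134. It read 11.77, 10.90, 10.72 and 9.84 in undecanal arrays titled GFP+, against 15.81, 14.59, 13.95 and 13.75 in those titled GFP-. In vehicle arrays it read 8.35, 10.51, 10.13 and 10.03 in titled GFP+ and 12.66, 13.56, 13.72 and 13.96 in titled GFP-. The fractions did not overlap under either agent, and the difference was -3.72 in both (SE 0.499, limma adjusted p = 2.55e-05), or 13.2-fold lower. Olfr1151 read 6.63, 6.80, 6.86 and 7.99 in undecanal arrays titled GFP+, against 9.51, 9.56, 10.72 and 10.19 in those titled GFP-. In vehicle arrays it read 6.76, 7.06, 7.59 and 7.07 in titled GFP+ and 9.87, 10.14, 11.16 and 10.64 in titled GFP-. The lowest array titled GFP- was thus above the highest titled GFP+ under both agents, with differences of -2.93 (SE 0.335, limma adjusted p = 3.7e-06) in undecanal pools and -3.34 (limma adjusted p = 7.17e-07) in vehicle pools. Olfr1151 is also the receptor just inside the numbering that chose the 134. The nearest below it on the array, Olfr1148, is of family MOR264 and differed by 0.10 in undecanal pools and 0.37 in vehicle pools.

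Olfr1263 averaged 9.85 ± 0.894 in titled GFP+ and 13.23 ± 0.307 in titled GFP- of undecanal pools, and 10.23 ± 0.724 and 13.33 ± 0.359 in titled GFP+ and titled GFP- of vehicle pools (SD, n = 4 each). It was lower by 3.37 and 3.10 log2 units, and so was its neighbour of the same family, Olfr1262, with differences of -2.02 and -2.15 in undecanal and vehicle pools. The other receptors among the 12 lowest of vehicle pools differed by between -2.62 and -1.88 in undecanal pools and between -2.80 and -2.21 in vehicle pools. They were Olfr1246, Olfr1156, Olfr1166, Olfr1270, Olfr1242, Olfr1264, Olfr1195, Olfr1157 and Olfr1301. Each of the 12 was lower in 8 of 8 pools, where the 4 vehicle pools had again been part of the rule of choice. Olfr1156 had the tightest values of these, 8.63 ± 0.263 in titled GFP+ and 11.08 ± 0.123 in titled GFP- of undecanal pools and 8.37 ± 0.216 in titled GFP+ and 11.09 ± 0.317 in titled GFP- of vehicle pools (SD, n = 4 each). The range of differences was narrower downward than upward: in both agents 25 receptors were over 4-fold higher and 12 over 4-fold lower. Such counts were not at hand for all probe sets, for odorant receptors outside this set or for other scalings. The median difference of the receptors in vehicle pools was -0.02 as reported. It was -0.37 with arrays centred on their medians and 0.25 with arrays centred on the mature neuron markers. Whether the uneven counts belong to these receptors or to the scaling was not tested.

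**Figure D2:**
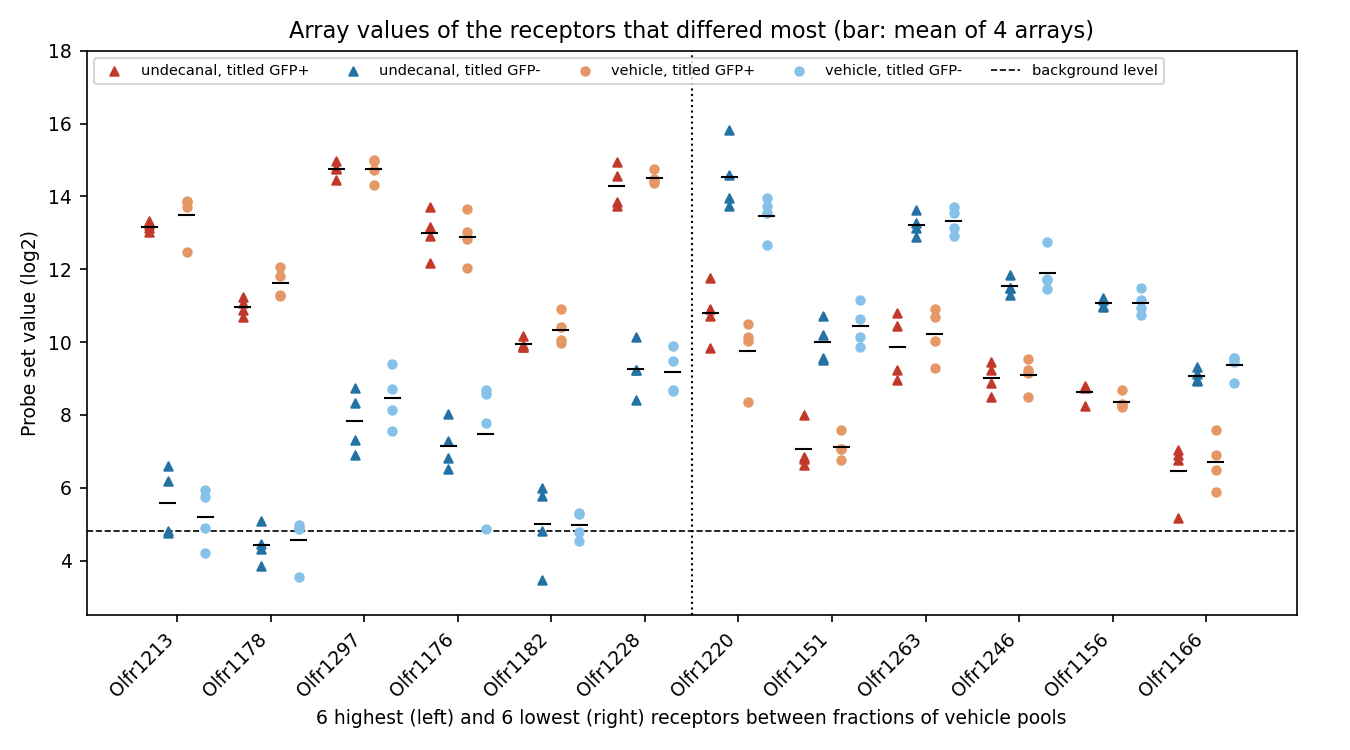
Probe set values (log2) on each of the 16 arrays for the 6 highest and the 6 lowest receptors between fractions of vehicle pools, with triangles for undecanal arrays, circles for vehicle arrays, bars for means of 4 arrays and a dashed line at the background level of 4.80. The fractions titled GFP+ and GFP- of an agent do not overlap for any of the 12, and Olfr1213, Olfr1178, Olfr1182 and 1 array of Olfr1176 come near or below background in titled GFP-.

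Olfr1264, Olfr1222, Olfr1197 and Olfr1247 had the highest mean signal over the 16 arrays, although probe sets differ in how they bind and the order of signals need not be one of mRNA. Of these Olfr1264 was called, with 15.00 ± 0.432 in titled GFP+ and 17.22 ± 0.309 in titled GFP- of undecanal pools and 14.93 ± 0.578 and 17.22 ± 0.393 in titled GFP+ and GFP- of vehicle pools (SD, n = 4 each). Its differences were -2.22 and -2.28. The other 3 did not pass under either agent: Olfr1222 differed by -0.25 in undecanal pools and -0.46 in vehicle pools, Olfr1197 by 0.98 and 0.95, and Olfr1247 by 0.26 and 0.29.

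By family, the counts of higher and lower receptors ran from mostly higher to all lower. MOR225, with 11 receptors, had 7 higher and 1 lower in undecanal pools and 7 higher and 2 lower in vehicle pools. The 7 were the same receptors under both agents: Olfr1178, Olfr1181, Olfr1182, Olfr1184, Olfr1196, Olfr1198 and Olfr1208, with Olfr1178 known by the bounds given above and the other 6 differing by 3.03 to 4.95 in undecanal pools and by 2.69 to 5.37 in vehicle pools. Within the family Olfr1180 was lower, by 1.70 and 1.26 log2 units in undecanal and vehicle pools, a call that ended in 1 and 8 of 17 other settings. MOR228 had 0 of 4 higher and 3 lower under each agent, and of these 3 Olfr1506 shares its values with its copy Olfr1565, which RefSeq gives no family. MOR177, with Olfr1151, Olfr1152 and Olfr1153, had 3 of 3 lower under both agents, although the call of Olfr1152 in vehicle pools ended in 4 of 17 other settings. MOR234 had 2 of 3 lower, Olfr1262 and Olfr1263. Each of these families was small, and the counts are a description with no test.

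The larger families held receptors of both directions. MOR233, with 18 receptors from Olfr1211 to Olfr1232, had 7 higher and 3 lower in undecanal pools and 6 higher and 2 lower in vehicle pools, and it held both the highest receptor, Olfr1213, and the lowest, Olfr1220. MOR248, with 14 receptors, had 4 higher and 6 lower in undecanal pools and 4 higher and 7 lower in vehicle pools. Of the MOR248 calls 5 of 10 in undecanal pools and 5 of 11 in vehicle pools held in all 17 other settings. MOR245, with 21, had 9 higher and 1 lower in undecanal pools and 8 higher and 1 lower in vehicle pools, of which 8 of 10 and 3 of 9 held in all settings. MOR231, with 17, had 4 higher and 4 lower in undecanal pools and 3 higher and 5 lower in vehicle pools. MOR174, with 12, had 3 higher and 5 lower in undecanal pools and 2 higher and 5 lower in vehicle pools, with Olfr1176 the highest at 5.83 and 5.42, and the lowest Olfr1157 at -2.62 and -2.23, Olfr1166 at -2.62 and -2.65 and Olfr1156 at -2.45 and -2.72. MOR230, with 8, had 1 higher and 3 lower under each agent. MOR232, with 7, had 3 higher and 0 lower under each agent, but each of its calls ended under at least 1 other setting.

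**Figure D3:**
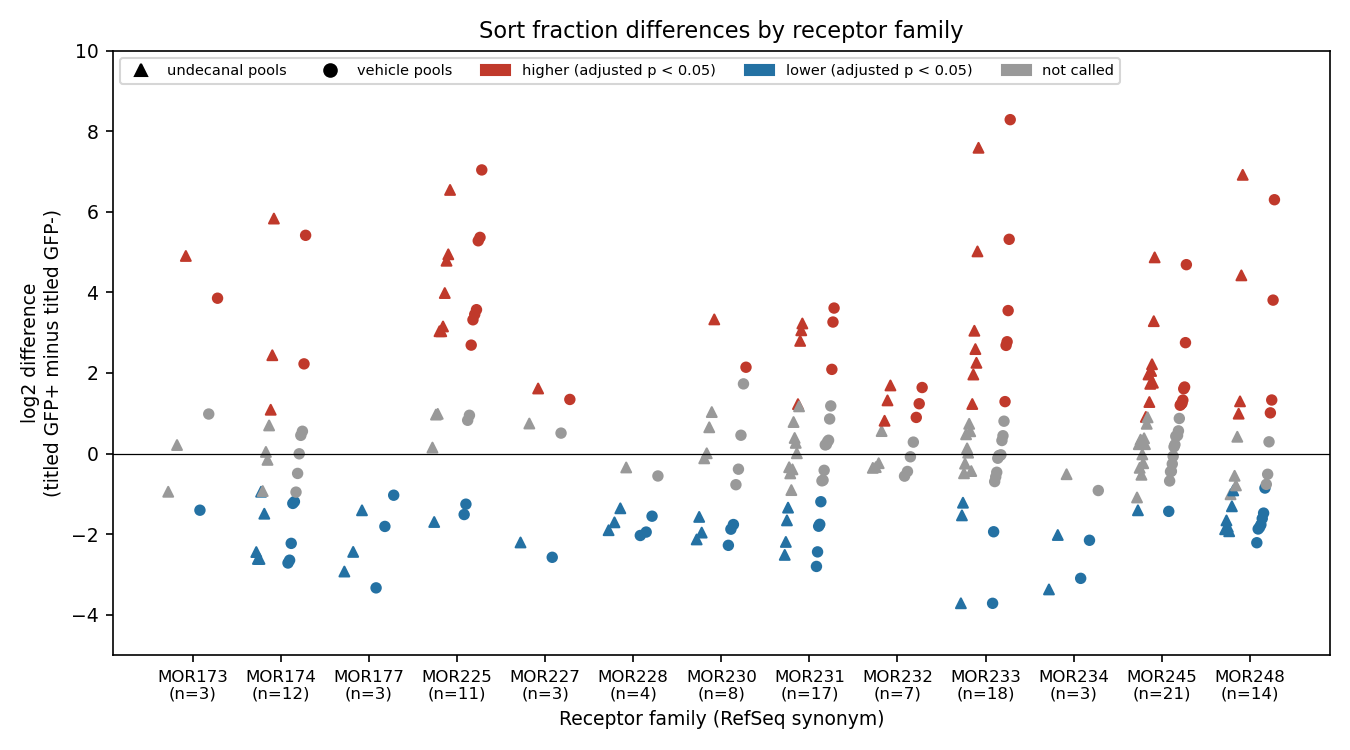
Difference between sort fractions (titled GFP+ minus titled GFP-, log2) of each receptor in the families with 3 or more receptors, with triangles for undecanal pools and circles for vehicle pools, coloured by the limma call. MOR225 has 7 of 11 receptors called higher under both agents, MOR177 has 3 of 3 called lower, and MOR233 spans from -3.72 to 8.29.

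Receptors with near-identical coding starts did not always go together. Olfr1297, the third highest in vehicle pools, and Olfr1294 share 48 of the 50 bases printed above, are of the same family, MOR248, and lie 2 places apart. Olfr1294 read 10.33, 10.28, 10.41 and 10.09 in undecanal arrays titled GFP+, against 11.95, 12.14, 12.08 and 11.59 in those titled GFP-. In vehicle arrays it read 10.38, 10.30, 10.23 and 10.70 in titled GFP+ and 12.46, 12.40, 12.14 and 12.10 in titled GFP-. It was thus lower in every array titled GFP+, with differences of -1.66 in undecanal pools (SE 0.156, limma adjusted p = 3.35e-07) and -1.87 in vehicle pools (limma adjusted p = 7.13e-08), while Olfr1297 was higher by 6.92 and 6.30. This pair was chosen after its values were seen. Among the 27 pairs that share 45 or more bases, both receptors were called in 9 pairs in undecanal pools, 5 in the same direction and 4 in opposite directions. In vehicle pools both were called in 8 pairs, 4 in the same and 4 in opposite directions. The opposite pairs were the same under both agents. They were Olfr1294 with Olfr1297, and Olfr1238 with each of Olfr1241, Olfr1250 and Olfr1252, the latter at 45 of 50 bases. The pairs thus share receptors and are not independent. A match over 50 bases says nothing about where the probes of a probe set lie, which the files do not give, so cross-hybridisation between close relatives was not tested.

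Other pairs had identical coding starts. Olfr1196 and Olfr1197 stand side by side in MOR225 and share 50 of 50 bases. Olfr1196 averaged 11.22 ± 0.378 in titled GFP+ and 8.07 ± 0.811 in titled GFP- of undecanal pools and was higher by 3.15 there (limma adjusted p = 6.67e-06) and by 3.45 in vehicle pools (limma adjusted p = 2.12e-06). Olfr1197, given above, was higher in 8 of 8 pools and had an adjusted p of 0.0778 and 0.0867 from limma in undecanal and vehicle pools. With the pool as a replicate block its limma adjusted p was 0.0264 and 0.0301, so that it then passed in the same direction as Olfr1196. Olfr1154 and Olfr1158 share 50 of 50 bases on opposite strands, and Olfr1158 was below background in all 4 groups, with means from 3.52 to 4.50. Olfr1251 and Olfr1253 share the stretch as well, and so do Olfr1249 and Olfr1253, all 3 in MOR231. Olfr1251 differed by 1.17 and 1.18 in undecanal and vehicle pools, Olfr1253 by 0.01 and 0.33, and Olfr1249 by -0.39 and -0.42, and none passed, although Olfr1251 and Olfr1249 did so under some other settings.

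Neighbours along the chromosome could share or differ in direction. Of the 132 neighbouring pairs within a run, both receptors were called in 45 in undecanal pools and 44 in vehicle pools, and 27 of each, 60% and 61.4%, had the same direction. Among pairs of the same run that were not neighbours 49.2% of 1856 and 49.4% of 1799 had the same direction. Of the 132 neighbouring pairs, however, 81 were of the same family. Same-family pairs of a run that were not neighbours shared direction in 58.3% of 211 and 57.8% of 199, close to the shares of neighbours. Neighbours of the same family shared direction in 17 of 25 pairs in undecanal pools and 15 of 23 in vehicle pools, and neighbours of different families in 10 of 20 and 12 of 21. Pairs share receptors and are not independent, and these shares are a description. The run from Olfr1151 to Olfr1274 had 29 higher and 30 lower in undecanal pools and 26 higher and 32 lower in vehicle pools. The run from Olfr1275 to Olfr1318 had 13 higher and 7 lower in undecanal pools and 12 higher and 8 lower in vehicle pools.

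Sequence around the annotated starts was rich in A and T. RefSeq windows of 250 bases before and 50 after the start of a gene model were at hand for 119 of the 134 receptors, in 121 windows, but 87 of the models start at the ATG, so that most windows lie in front of the coding start and need not hold a promoter. The homeodomain core TAATTA, searched on both strands, stood in 36 of 121 windows, or 29.75%, against 16.71% of the windows of other receptors and 5.29% of all windows of this length. The windows were 67.27% A and T, against 63.42% in those of other receptors and 46.19% in all. The palindromic Ebf site, the same on both strands, was in 0 of 121 windows, in 0.62% of those of other receptors and in 0.9% of all. Among the 32 receptors whose model starts upstream of the ATG the core was in 13 of 34 windows, or 38.24%. The 250 bases before the starts of the highest and the lowest receptor, both of MOR233 and both with such a model, are printed to show this composition, with TAATTA in capitals.
Olfr1213 (chr2:88980268-88980517, minus strand): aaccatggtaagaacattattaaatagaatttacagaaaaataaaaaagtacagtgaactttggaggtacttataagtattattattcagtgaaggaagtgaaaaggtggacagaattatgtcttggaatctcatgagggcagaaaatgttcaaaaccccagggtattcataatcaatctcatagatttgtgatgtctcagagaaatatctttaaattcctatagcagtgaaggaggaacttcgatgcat
Olfr1220 (chr2:89097964-89098213, minus strand): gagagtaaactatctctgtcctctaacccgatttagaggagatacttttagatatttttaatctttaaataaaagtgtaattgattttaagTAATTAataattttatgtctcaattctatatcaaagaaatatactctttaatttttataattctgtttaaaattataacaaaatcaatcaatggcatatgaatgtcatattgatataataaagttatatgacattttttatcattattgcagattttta
The letters TAATTA are in the window of Olfr1220 and not in that of Olfr1213, and a match in a window is not a binding site.

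The division by the sort was much alike under the agents. Of the 134 receptors 72 were called in the same direction in undecanal and vehicle pools, 38 higher and 34 lower, and 0 in opposite directions. These were 53.7% of the 134, beside 53.1% of the other receptors and 10.1% of all probe sets. They were 91.1% of the calls of undecanal pools and 92.3% of those of vehicle pools, beside 92% and 90.2% for the other receptors and 76.8% and 72.7% for all probe sets. A further 7 were called in undecanal pools alone, 6 in vehicle pools alone and 49 in neither. The sign was the same for 122 receptors, or 91%, beside 92.4% of the other receptors and 78.1% of all probe sets. In 8 of 8 pools 83 had 1 sign, 43 higher and 40 lower, or 61.9%, beside 61.3% of the other receptors and 19.6% of all probe sets. The differences of undecanal pools followed those of vehicle pools over the 134 receptors with a Pearson r of 0.981 and a Spearman rho of 0.975, beside 0.983 and 0.974 over the other receptors and 0.95 and 0.644 over all probe sets. The comparisons share no array, but they share probe sets and sort, and this is a description. The median gap between the agents' differences was 0.27 and the largest, of Olfr1179, was 1.66.

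Between undecanal and vehicle none of the 134 receptors passed a limma adjusted p under 0.05, in either fraction. In titled GFP+ 0 were called, against 0.0045% of all probe sets, and 3 receptors, or 2.24%, had an unadjusted p under 0.05, beside 2.72% of all probe sets. The groups did not overlap for 3, or 2.24%, beside 1.04% of the other receptors and 1.87% of all probe sets. Olfr1179, of MOR225, had the smallest p. It read 7.79, 6.78, 6.82 and 7.12 in undecanal arrays titled GFP+, against 5.24, 5.85, 5.78 and 6.30 in vehicle arrays titled GFP+, so that the groups were apart by less than a log2 unit. Its difference was 1.33 (SE 0.479, limma adjusted p = 0.999). In titled GFP- it read 7.92, 8.12, 6.14 and 5.74 with undecanal, against 7.29, 8.35, 7.18 and 6.41 with vehicle, which overlapped. Olfr1220 differed by 1.05 in titled GFP+ with overlapping arrays. The vehicle mean of Olfr1186, at 4.40, was below background and its undecanal mean, at 5.51, above it, also with overlapping arrays. Set against the background level of 4.80, the undecanal mean was 1.63-fold higher. It lay under the 99th percentile level of 5.79, however, so no least rise is shown. Olfr1178 differed by -0.64 without overlap, and Olfr1158 was below background in both groups. The limma adjusted p was 0.999 for each of these.

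In titled GFP- 0 of the 134 were called, against 0% of all probe sets, and 12 receptors, or 8.96%, had an unadjusted p under 0.05, beside 4.12% of all probe sets. The groups did not overlap for 2, or 1.49%, beside 1.78% of the other receptors and 2.2% of all probe sets. The smallest p was that of Olfr1154, whose 4 undecanal arrays titled GFP-, at 6.64, 7.80, 7.27 and 6.85, were all below its 4 vehicle arrays titled GFP-, at 7.81, 8.08, 8.63 and 8.62. The highest undecanal and the lowest vehicle array differed by little, and the difference was -1.15 (SE 0.241, limma adjusted p = 0.562). Olfr1252 differed by -0.86, Olfr1259 by -0.57, Olfr1311 by -0.58 and Olfr1276 by 0.82 in titled GFP-, with a limma adjusted p of 1 for each. In this fraction 95 of the 134 differences were negative, with a median of -0.17, beside -0.09 for the other receptors and 0.00 for all probe sets. That median was -0.04 with arrays centred on the receptors and -0.10 without undecanal replicate 4.

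The interaction, which asks whether the difference between fractions changed with the odorant, was called for 0 of the 134, against 0% of all probe sets. An unadjusted p under 0.05 was had by 3 receptors, or 2.24%, beside 2.63% of all: Olfr1154 at 1.05 (SE 0.34), Olfr1234 at 0.86 (SE 0.337) and Olfr1179 at 1.66 (SE 0.677), each with a limma adjusted p of 1. Olfr1314, below background in all 4 groups, and Olfr1215, at -1.30, followed. In titled GFP- Olfr1215 read 9.48 ± 1.15 with undecanal and 8.28 ± 0.81 with vehicle (SD, n = 4 each), and the arrays overlapped. Of the 134 interactions 92 were positive, with a median of 0.16, beside 0.11 for the other receptors and 0.01 for all probe sets. The median of the 134 was 0.0023 with arrays centred on the receptors. It was -0.0015 without undecanal replicate 4 and 0.01 without vehicle replicate 1. These 3 comparisons share arrays and are not independent of each other.

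**Figure D4:**
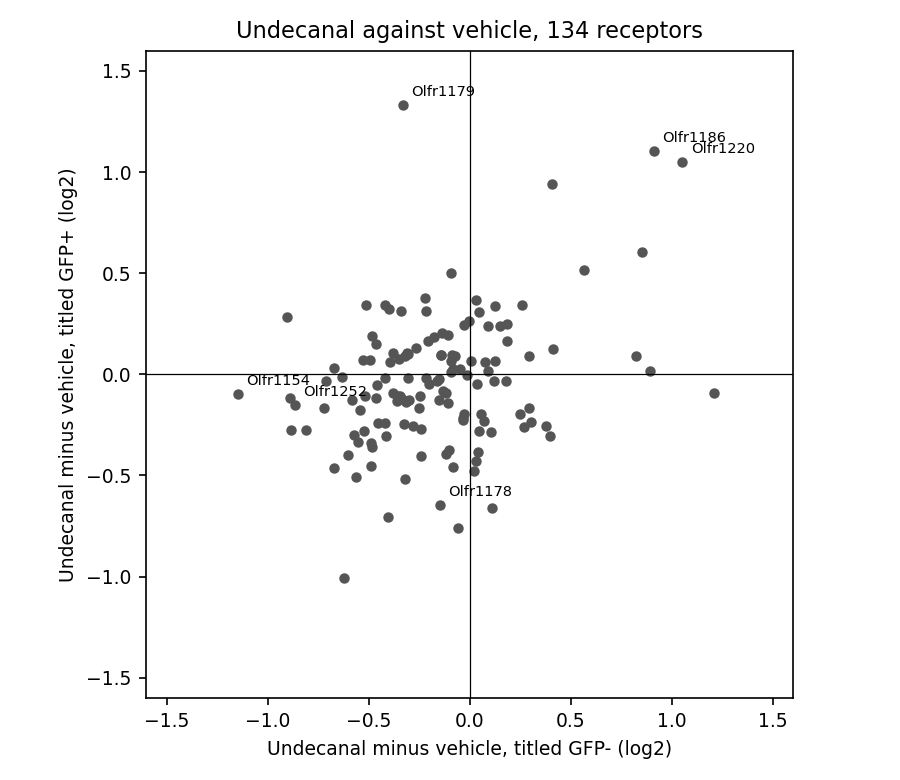
Undecanal minus vehicle (log2) for each of the 134 receptors in titled GFP+ (vertical axis) and titled GFP- (horizontal axis), with 1 point per receptor and the smallest p of each fraction named. No receptor was called, 95 of the 134 lie left of 0, and Olfr1179 (1.33 in titled GFP+) and Olfr1154 (-1.15 in titled GFP-) lie at the edges.

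Genes that act beside the receptors were taken from fixed lists. A list of 17 genes covered the transduction pathway, through which receptors raise cyclic AMP and open ion channels. In undecanal pools 0 were higher and 3 lower, and in vehicle pools 0 were higher and 4 lower. The list medians were -0.23 and -0.18, beside -0.11 for all probe sets in each agent. The genes lower under both agents were Ano2, the calcium-gated chloride channel of the cilia, by 0.42 and 0.51 log2 units, Pde1c, a phosphodiesterase that degrades cyclic AMP, by 0.52 and 0.65, and Slc24a4, an exchanger that removes calcium, by 0.44 and 0.60. All of them also belong to the mature neuron markers counted above, so the lists are not separate. Of 12 genes that act in receptor choice 1 was higher in undecanal pools and 2 in vehicle pools, with 0 lower. Lbr, a nuclear envelope protein that neurons lose as they mature, was higher by 0.99 in undecanal pools and 1.07 in vehicle pools, and Cbx5, a heterochromatin protein, by 0.44, which did not pass, and 0.72. Beside these the median absolute difference of the 134 receptors was 1.29 in undecanal pools and 1.25 in vehicle pools. That of the other odorant receptors was close, at 1.23 and 1.29, and that of all probe sets was 0.22 and 0.23.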

How the data were processed

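The authors deposited 1 summarised signal per probe set and array on a log2 scale. Per the submitters' processing notes, the tool was Affymetrix Expression Console. The algorithm is not given in the sources used here, nor is a build. Values ran from 1.44 to 19.71. Of 28846 table entries, 6640 control probe sets were left out and 22206 were tested. Biotinylated cRNA came from 50 to 100 ng of RNA, per the labels. Depth is not defined for arrays.

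Groups followed the titles. In R 4.3.3, limma 3.58.1 (lmFit, eBayes) fitted 4 group means to all arrays with no block. The contrasts were the titled GFP+ fraction minus the titled GFP- fraction under each agent, undecanal minus vehicle within each fraction, and the interaction. Calls were made at a Benjamini-Hochberg adjusted p under 0.05, with the adjustment over 22206 probe sets. The p-values take both fractions of a pool to be independent. Fractions of the same number and agent come from the same mice, per the labels' groups of 3 among 24 mice. Their deviations from group means had correlations between 0.05 and 0.27, and 6 of 8 pools exceeded 0.1.

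Gene symbols came from the platform annotation, and 134 of 134 receptors matched RefSeq by gene identifier. Coordinates and sequences are those of RefSeq, GRCm38.p6. A log2 difference is between group means, and a bound replaces it where 1 mean was below background. Named receptors were the 12 highest and 12 lowest called between fractions of vehicle pools with 1 direction in 4 of 4 pools, the 5 smallest p of each comparison with no call, the 4 highest mean signals and 4 pairs of close sequence. The pairs were to be taken by protein identity, but no protein table was used here, and the first 50 coding bases stand in its place. Receptors named as members of a family, and the pair Olfr1294 and Olfr1297, were chosen after their values were seen. The receptors, lists and tests were chosen with earlier results of these data known.

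Alternatives covered scaling, the prior variance, array weights, dropping dim probe sets, the groups in the fit, replicate blocks, left-out pools and the background level.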

Additional observations from a re-analysis of the deposited data

Results flagged for a closer look

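Over 43 genes, 172 groups of 4 arrays were searched for an array whose gap to its nearest neighbour exceeded Dixon's 95% critical share of the group's range, and 15 had one. Chance gives about 1 in 20 groups. Among the receptors highest in titled GFP+, Olfr1213 read 12.47 in vehicle replicate 1 titled GFP+, where the nearest array read 13.71. Olfr1178 read 3.55 in vehicle replicate 2 titled GFP-, under the background level, and Olfr1277 read 5.99 in vehicle replicate 4 titled GFP-. Olfr1215 read 12.72 in vehicle replicate 2 titled GFP+, and Olfr1196 read 9.57 in vehicle replicate 1 titled GFP-.

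Among the lowest, Olfr1151 read 7.99 in undecanal replicate 4 titled GFP+. Olfr1156 read 8.24 in undecanal replicate 2 and 8.69 in vehicle replicate 2, both titled GFP+. Olfr1166 read 5.18 in undecanal replicate 2 titled GFP+ and 8.89 in vehicle replicate 1 titled GFP-. Olfr1270 read 10.49 in undecanal replicate 3 titled GFP-. Of the others, Olfr1222 read 15.54 in undecanal replicate 4 titled GFP+ and Olfr1251 read 10.21 in undecanal replicate 2 titled GFP+. Olfr1249 read 7.17 in vehicle replicate 2 titled GFP-, and Omp read 18.72 in the same array, against 18.87 in the nearest. None of the fraction calls of Olfr1213, Olfr1178, Olfr1277, Olfr1215, Olfr1196, Olfr1151, Olfr1156, Olfr1166 and Olfr1270 ended when any 1 pool was left out.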

How the results depend on the processing

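Of 79 calls in undecanal pools 62 remained under all 17 alternatives, 32 higher and 30 lower, and of 78 in vehicle pools 53 remained, 26 higher and 27 lower. With 1 pool left out, 35 to 45 receptors were higher and 31 to 38 lower in undecanal pools, and 31 to 40 higher and 31 to 40 lower in vehicle pools. With the pool as a replicate block 44 were higher and 40 lower in undecanal pools and 42 and 41 in vehicle pools, and the block ended no call of a named receptor, while Olfr1197 then passed in both agents. By the labels, the same number under different agents stands for different mice. The correlations of deviations between such arrays ran from -0.04 to 0.29, beside 0.05 to 0.27 between fractions of a pool. These correlations therefore do not tell pools of the same mice from shared numbers. A block by number also gave 0 calls of undecanal against vehicle. Centring moved the median difference of all probe sets in vehicle pools from -0.11 to -0.47 with array medians, 0.15 with mature neuron markers and 0.13 with receptors. Higher and lower calls of receptors in vehicle pools were then 36 and 52, 49 and 34, and 48 and 38, and in undecanal pools 40 and 50, 50 and 32, and 46 and 36. Undecanal against vehicle and the interaction gave 0 calls in every setting tried. With 99th percentile and negative control backgrounds 123 and 99 receptors, not 129, were detected.

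These signs turned, each of a difference that was not called, and the cause was not tested. In vehicle pools median centring gave -0.072 for Olfr1259, -0.0628 for Olfr1247 and -0.0257 for Olfr1253, and mature neuron centring gave 0.0078 for Olfr1314. In undecanal pools median centring gave -0.21 for Olfr1179, -0.15 for Olfr1158, -0.0132 for Olfr1314, -0.0935 for Olfr1247 and -0.35 for Olfr1253. Quantile normalization gave -0.0664 for Olfr1179, and array weights gave -0.0897 for it and -0.0435 for Olfr1253. For Omp mature neuron centring gave 0.19 in undecanal and 0.26 in vehicle pools, and receptor centring gave 0.0376 and 0.24. Leaving out a pool gave from -0.26 to 0.64 for Olfr1179, from -0.15 to 0.34 for Olfr1158 and from -0.21 to 0.28 for Olfr1253 in undecanal pools. In vehicle pools it gave from -4e-04 to 0.43 for Olfr1259, from -0.0383 to 0.74 for Olfr1247 and from -0.0479 to 0.019 for Omp.

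Of the named receptors, Olfr1179 lost its call in vehicle pools in 5 of 17 alternatives, among them without vehicle replicate 1, 2 or 3 (limma adjusted p up to 0.207), and Olfr1311 lost its call in undecanal pools without undecanal replicate 1. Some differences reported as not called passed in other settings, here with the smallest limma adjusted p. In vehicle pools these were Olfr1158 (0.00328, 6 settings), Olfr1197 (0.0144, 4), Olfr1251 (0.0197, 3) and Olfr1311 (0.0255, 2), and with median centring alone Olfr1222 (0.0181), Olfr1249 (0.00801), Olfr1276 (0.0108), Olfr1314 (0.0326) and Omp (0.0133). In undecanal pools they were Olfr1197 (0.0128, 6 settings), Olfr1251 (0.0275, 3) and Olfr1259 (0.0177, 2), and with median centring alone Olfr1234 (0.0248), Olfr1249 (0.00991) and Omp (0.00812). Olfr1158 and Olfr1314 lay below background. Signal near background limits Olfr1178, Olfr1182, Olfr1184, Olfr1213 and Olfr1277 in titled GFP-.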

Other observations

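The receptors called under a single agent, named here after their values were seen, differed by at most 1.61 log2 units in size, beside a median absolute difference of 1.29 in undecanal and 1.25 in vehicle pools over the 134. In undecanal pools alone Olfr1162 (1.09, against 0.55 in vehicle pools), Olfr1216 (1.23 and 0.80), Olfr1248 (1.23 and 0.86) and Olfr1311 (0.91 and 0.45) were higher in titled GFP+. Olfr1168 (-1.49 and -0.96), Olfr1225 (-1.22 and -0.70) and Olfr1276 (-1.41 and -0.68) were lower there. In vehicle pools alone 6 receptors were lower in titled GFP+ and 0 higher. These were Olfr1160, with -0.95 in undecanal and -1.41 in vehicle pools, Olfr1170 (-0.93 and -1.19), Olfr1179 (0.15 and -1.51), Olfr1234 (-0.34 and -1.20), Olfr1284 (-1.09 and -1.44) and Olfr1290 (-1.01 and -1.61). The interaction was not called for any of the 13 at a limma adjusted p under 0.05, and Olfr1234 and Olfr1179 had the smallest unadjusted interaction p among them, 0.0212 and 0.025.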
